A study of Mus musculus with 12 samples.

Results

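The 8 cholesterol synthesis genes *Hmgcs1*, *Idi1*, *Fdps*, *Fdft1*, *Sqle*, *Lss*, *Insig1* and *Srebf2* were followed through 12 RNA-Seq libraries of primary mouse keratinocytes. They were taken by name from the 21947 rows (loci) of the count table, where a row counts if one of its names joined by a plus sign is a listed gene, and rows whose names are joined by a comma were left out. All 8 genes were found and all 8 passed the filter on low counts in every comparison. The question was whether lipid transfection and culture batch shift the genes of sterol synthesis.

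Keratinocytes, the main cells of the epidermis, were cultured from newborn BALB/c mice in 0.05 mM calcium, and calcium was raised to 0.12 mM, which starts their differentiation. Cultures received 75 pmol of a pool of small interfering RNAs (siRNA) against *Sbsn*, the gene of the secreted epidermal protein suprabasin (siSbsn), or of siControl, a pool without a target, both with HiPerfect, a lipid-based transfection reagent, and RNA was taken 48 hours later. The labels give 5 groups, namely no siRNA (n = 2), siControl (n = 2) and siSbsn (n = 2) in batch 1 and siControl (n = 3) and siSbsn (n = 3) in batch 2, and they do not say what differed between the batches. The sources used here do not state whether the cultures without siRNA received the reagent, so reagent and siRNA cannot be told apart in what follows. The protocol speaks of wells of culture plates and of 3 cultures per condition, whereas batch 1 has 2 libraries per condition, and it does not say whether the libraries of a group came from separate wells, mice or isolations, so p-values measure the spread between these samples, which may be technical.

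Cholesterol is built from acetyl-CoA through the mevalonate pathway, which first makes isoprenoid units, joins them into farnesyl diphosphate and squalene, and then closes squalene into the first sterol, lanosterol. When sterol in the endoplasmic reticulum is low, the transcription factor SREBP2 is carried to the Golgi by its escort SCAP, is cut, and switches on nearly the whole pathway. When sterol is plentiful, INSIG proteins hold SCAP in place and the genes go down together. In skin the pathway supplies the cholesterol of the lipid layers between cornified cells.

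The 8 genes lie on several mouse chromosomes (mm10, positions counted from 1, as the rows of the table give them). *Hmgcs1* (ENSMUSG00000093930.2, chr13:119690351-119708260, plus strand), *Idi1* (ENSMUSG00000058258.14, chr13:8885606-8892396, plus strand), *Sqle* (ENSMUSG00000022351.14, chr15:59315092-59331193, plus strand) and *Insig1* (ENSMUSG00000045294.11, chr5:28071412-28078662, plus strand) have rows of their own. The other 4 rows join a further name. *Fdps* (ENSMUSG00000059743.12, chr3:89093588-89101967, minus strand) is joined with AK077979, *Lss* (ENSMUSG00000033105.12, chr10:76531605-76562226, plus strand) with 4930483K19Rik, and *Srebf2* (ENSMUSG00000022463.8, chr15:82147269-82205126, plus strand) with AK198376. *Fdft1* (ENSMUSG00000021273.10) occupies chr14:63145150-63179578 on the minus strand, but its row spans chr14:63122462-63179578 and also counts the reads of *Ctsb*, the gene of the lysosomal protease cathepsin B. Reads of *Fdft1* and *Ctsb* cannot be separated, and every value given for *Fdft1* is that of the joined row. The rows hold exonic reads of transcripts with between 5 exons (*Idi1* and *Insig1*) and 22 exons (*Lss*).

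The stretch just before the start of 3 members is shown because the genes moved together across the libraries. The sequences are those of RefSeq (GRCm38.p6, the build of mm10), which held a promoter for 5 of the 8 members, namely *Hmgcs1*, *Insig1*, *Srebf2*, *Lss* and *Idi1*, and not for *Sqle*, *Fdps* and *Fdft1*. Each runs 5′ to 3′ on the plus strand and ends before every annotated transcript start. Capitals mark matches to 4 short motifs searched on both strands, namely TCACNCCAC, the core of a sterol regulatory element, CCAAT, the box bound by NF-Y, GGGCGG, the GC box bound by SP1, and CACGTG, the E-box. No match overlapped another.
Hmgcs1, chr13:119690101-119690350: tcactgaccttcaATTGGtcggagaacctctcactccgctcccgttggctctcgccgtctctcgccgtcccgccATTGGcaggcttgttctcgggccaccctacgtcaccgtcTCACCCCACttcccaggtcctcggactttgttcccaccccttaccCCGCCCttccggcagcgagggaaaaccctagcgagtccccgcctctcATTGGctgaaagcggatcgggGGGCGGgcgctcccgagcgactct
Insig1, chr5:28071162-28071362: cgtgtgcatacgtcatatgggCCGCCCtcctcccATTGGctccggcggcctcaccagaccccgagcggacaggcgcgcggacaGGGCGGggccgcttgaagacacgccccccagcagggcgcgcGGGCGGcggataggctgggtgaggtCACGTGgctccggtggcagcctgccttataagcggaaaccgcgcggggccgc
Srebf2, chr15:82147019-82147180: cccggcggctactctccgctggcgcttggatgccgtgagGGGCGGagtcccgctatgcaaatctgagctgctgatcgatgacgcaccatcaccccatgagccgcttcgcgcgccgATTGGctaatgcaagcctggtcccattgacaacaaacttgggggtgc

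The *Hmgcs1* promoter held TCACCCCAC starting at position -137 from its RefSeq start, 3 CCAAT matches and 2 GC boxes. It was the only 1 of the 5 promoters with an exact match to TCACNCCAC in the 250 bases searched. Elements that differ from these letters were not searched. In *Insig1* there were 1 CCAAT match, 3 GC boxes and CACGTG starting at position -101. Over the 250 bases before its start *Srebf2* had 1 CCAAT match and 4 GC boxes, of which those outside the printed stretch are not shown. *Lss* had 1 CCAAT match and 2 GC boxes, and *Idi1* 2 CCAAT matches and 1 GC box. Among 32851 RefSeq promoters searched over the same length, 1.05% held the sterol element, 33.8% the CCAAT box, 32.7% the GC box and 6.02% the E-box. A match of letters is a description of the sequence and not a binding site.

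Total counts ranged from 27934836 to 49553923 per library. Levels are given as CPM (counts scaled to 1e+06), the count of a locus divided by the effective library size from the loci that passed the filter. *Sbsn* was at 1231 and 1697 CPM in no siRNA, 1189 and 1356 CPM with siControl and 1965 and 696 CPM with siSbsn in batch 1. In batch 2 siControl lay between 332 and 459 CPM and siSbsn between 121 and 125 CPM. The library labelled siSbsn batch 1 replicate 1 thus had more *Sbsn* than any other library and goes against its label. For comparisons that include siSbsn libraries, the members' medians or calls are also given without it. Fold changes and counts of the other gene lists and the permutation tests are given only with it. In siControl of batch 1, 14.7% of 13562 loci were over 1.5 times higher in replicate 1 than in replicate 2, compared with 7.99% without siRNA and 7.94% in siSbsn of that batch. The keratinocyte markers were abundant in every library (10 of 10 passed the filter, summed level 47916 to 107927 CPM, led by *Krt17*).

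In batch 1 the level of the 8 genes differed widely between single libraries, for enzymes and regulators alike. *Hmgcs1*, the synthase that makes HMG-CoA at the entry of the mevalonate pathway, measured 443 and 160 CPM in no siRNA, 137 and 151 CPM with siControl and 556 and 221 CPM with siSbsn in batch 1. In batch 2 its siControl libraries had 123, 123 and 117 CPM and its siSbsn libraries 124, 122 and 120 CPM. Replicate 1 without siRNA and the library labelled siSbsn replicate 1 stood far above the rest, and all batch 2 libraries lay below every batch 1 library.

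*Idi1*, the isomerase that interconverts the isoprenoid building blocks, was low, at 3.79 and 1.18 CPM in no siRNA, 1.37 and 1.57 CPM with siControl and 5.42 and 2.12 CPM with siSbsn in batch 1. In batch 2 it was at 0.34 to 0.52 CPM, from only 11 to 25 reads per library. *Fdps*, the synthase of farnesyl diphosphate, was at 100.2 and 32.9 CPM, 76.0 and 37.7 CPM, and 143 and 47.6 CPM in the same 3 groups of batch 1. The same libraries were high as for *Hmgcs1*, and siControl replicate 1 followed them for *Fdps*. *Fdps* lay between 14.9 and 20.7 CPM in batch 2. Reads that aligned to more than 1 place had been dropped by the authors, and their part in the low level of *Idi1* was not tested.

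*Sqle*, the oxygen-dependent epoxidase that acts on squalene, was at 252 and 131 CPM in no siRNA, 136 and 115 CPM with siControl and 311 and 176 CPM with siSbsn in batch 1. Its 6 batch 2 libraries had 90.7, 90.4 and 95.3 CPM with siControl and 95.2, 95.6 and 100.4 CPM with siSbsn. The batches did not overlap. In batch 1 both siControl libraries lay below both siSbsn libraries, and the libraries without siRNA overlapped both groups. *Lss*, which closes oxidosqualene into lanosterol, was at 123 and 56.7 CPM, 60.1 and 53.3 CPM, and 171 and 74.5 CPM in the 3 batch 1 groups, in that order. It lay between 44.1 and 47.2 CPM in all of batch 2. The row of *Fdft1*, squalene synthase, counted with *Ctsb*, was at 811 and 587 CPM, 917 and 584 CPM, and 929 and 662 CPM in batch 1. It was the only member for which siControl replicate 1 ranked above replicate 1 without siRNA, and it lay between 361 and 384 CPM in batch 2.

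Both regulators were highest in the same 2 libraries as most enzymes, while the order of the other batch 1 libraries differed between genes. *Insig1*, which retains SCAP and is itself a target of SREBP2, was at 38.0 and 13.3 CPM in no siRNA, 13.8 and 12.2 CPM with siControl and 52.8 and 18.9 CPM with siSbsn in batch 1. In batch 2 it had 6.11, 6.55 and 6.57 CPM with siControl and 6.29, 5.94 and 6.26 CPM with siSbsn. *Srebf2*, which encodes SREBP2, was at 274 and 143 CPM, 124 and 130 CPM, and 325 and 193 CPM in the batch 1 groups. Its batch 2 values were 102.5, 97.9 and 91.1 CPM with siControl and 102.7, 88.9 and 96.1 CPM with siSbsn. *Srebf2* and *Hmgcs1* were the members whose libraries without siRNA both lay above both siControl libraries of batch 1.

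**Figure D1:**
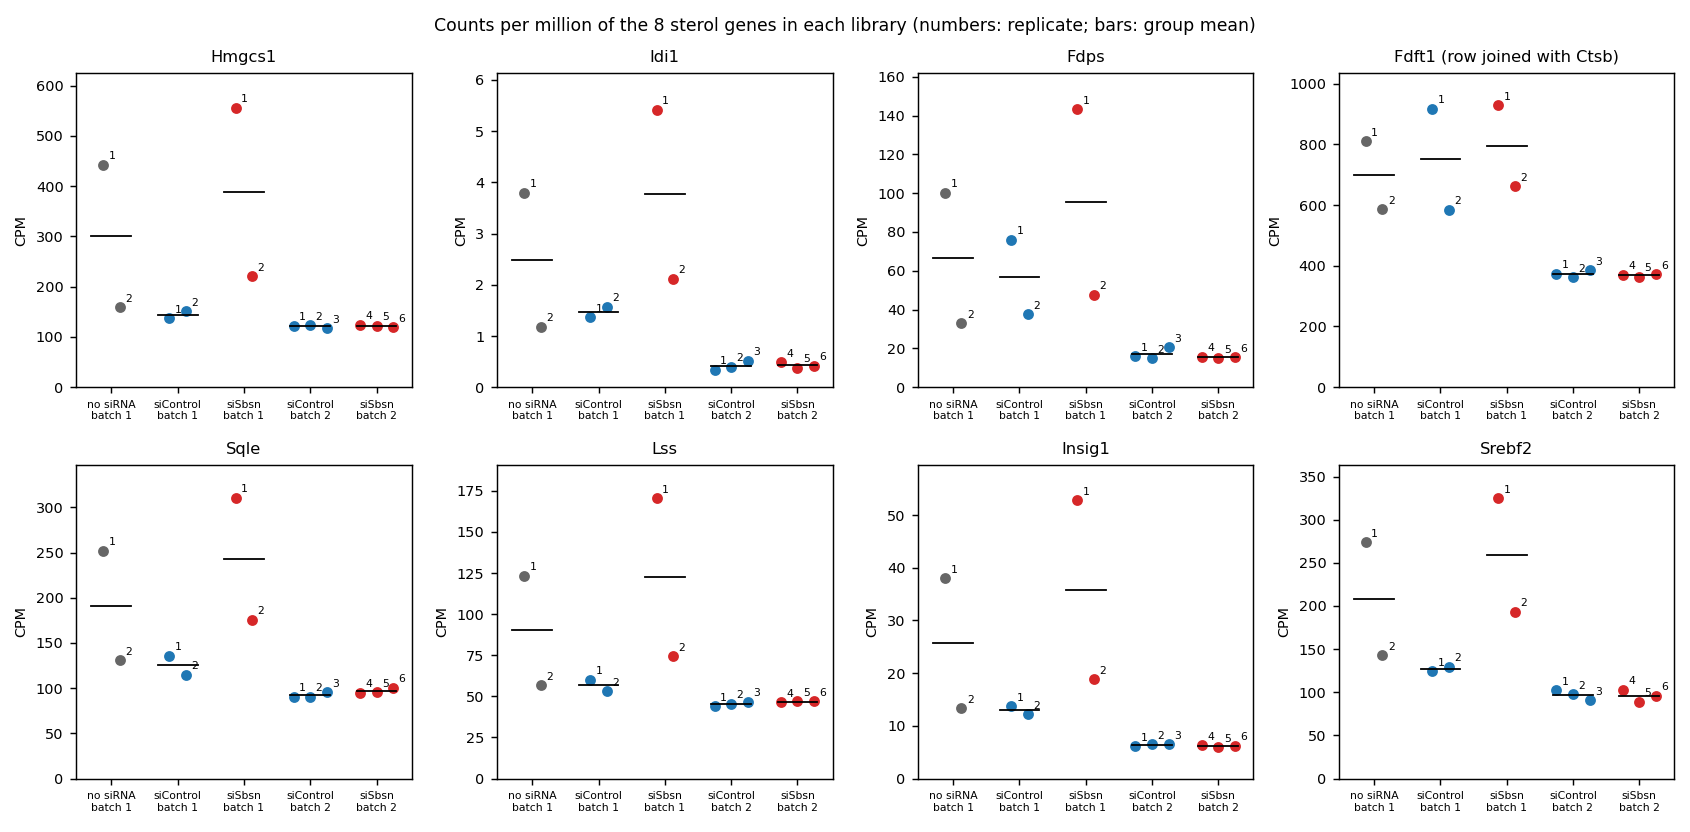
Level of each of the 8 genes in CPM (vertical axes, each starting at 0) in every library of the 5 groups, with points numbered by replicate and bars at the group mean. In all 8 panels the library labelled siSbsn batch 1 replicate 1 is the highest point, and the 6 batch 2 libraries sit close together below batch 1.

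The library labelled siSbsn batch 1 replicate 1 was the highest of the 12 for 8 of 8 members, and 15.7% of the 13562 loci had their highest value there. Replicate 1 without siRNA, the highest for 0 members and for 6.54% of loci, was the second for 7 of 8 members, *Fdft1* being the exception. Those 2 libraries took the first and the second place, in either order, for 14.5% of all loci, for 13 of 17 other sterol synthesis enzymes, for 11 of 13 fatty acid synthesis genes, for 8 of 16 genes of sterol sensing and uptake and for 0 of 7 LXR targets and sterol efflux genes. Without siRNA, replicate 1 over replicate 2 was 1.38 for *Fdft1* to 3.20 for *Idi1*, with a median of 2.35 over the members and 1.00 over all loci. In siSbsn of batch 1 the same ratio was 1.40 (*Fdft1*) to 3.01 (*Fdps*), with a median of 2.27, whereas in siControl it was 0.87 (*Idi1*) to 2.02 (*Fdps*), with a median of 1.12. These are values of single libraries, and no group was formed from them.

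Within batch 1 the fibroblast markers were highest in the same 2 libraries as the members. Their summed level was 1245 and 746 CPM without siRNA, 541 and 585 CPM in siControl, 1484 and 714 CPM in siSbsn of batch 1 and 524 to 610 CPM in batch 2, with *Col1a1* the most abundant, 10 of 10 passing the filter and *Lum* under 1 CPM in every library. The immune markers, led by *Lyz2*, were highest in the same 2 libraries at 16.0 and 15.0 CPM, and were between 5.89 and 6.75 CPM in the other batch 1 libraries and between 2.53 and 3.76 CPM in batch 2, with 6 of 9 passing the filter, *Cd207* at 0 and *Cd3e*, *Cd74* and *Tyrobp* under 1 CPM. Melanocyte markers (8 of 8, led by *Pmel*) were also highest in these 2 libraries within batch 1, at 923 and 942 CPM. They lay between 749 and 784 CPM in the other batch 1 libraries and between 1045 and 1110 CPM in batch 2. Endothelial markers (4 of 6, led by *Kdr*) had 4.40 and 4.16 CPM in the same 2 libraries. Elsewhere they had 1.91 to 4.08 CPM in batch 1 and 3.54 to 4.49 CPM in batch 2. The summed keratinocyte markers were at 72116 and 78392 CPM in the same 2 libraries. They were at 107927 CPM in siControl batch 1 replicate 1 and between 54021 and 65636 CPM in the other batch 1 libraries. The part of these cells in the members' levels was not tested. In bulk RNA fewer cells of a type and less RNA per cell cannot be told apart.

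**Figure D2:**
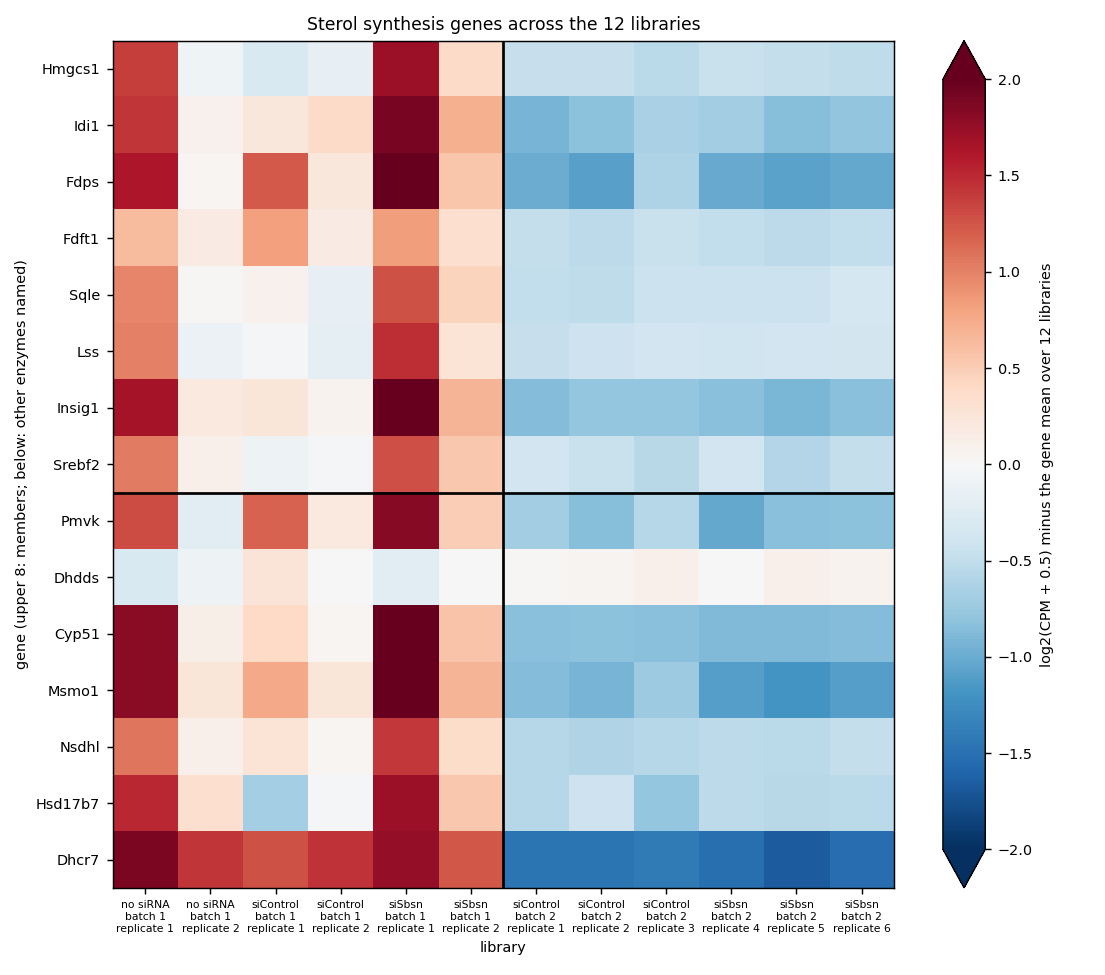
Each cell gives log2 of CPM plus 0.5 in 1 library minus the mean of that gene over the 12 libraries (colour, red above and blue below the mean, with values beyond -2 and 2 shown in the end colours), for the 8 members above the line and the 7 other sterol synthesis enzymes named in the text below it. The columns of no siRNA batch 1 replicate 1 and of the library labelled siSbsn batch 1 replicate 1 are red for all 8 members, and the 6 batch 2 columns are blue for all 8.

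Spread between libraries of a group was large in batch 1 and small in batch 2. On the scale of log2 of CPM plus 0.5 the within-group standard deviation (SD) in batch 1 ran from 0.38 for *Fdft1* to 1.00 for *Fdps*, with a median of 0.70 over the members and 0.25 over all loci. For *Fdps*, 99.5% of loci had a smaller SD, for *Hmgcs1*, 98.4%, and for *Fdft1*, the lowest of the members, 78.0%. In batch 2 the members' SD ran from 0.030 for *Lss* to 0.18 for *Fdps*, with a median of 0.046 against 0.11 for all loci. Here 2.53% of loci had a smaller SD than *Lss*, 3.58% than *Fdft1*, 3.80% than *Hmgcs1*, 7.60% than *Sqle* and 10.6% than *Insig1*. The other members were not narrow among all loci, with 38.4% below *Srebf2*, 49.5% below *Idi1* and 77.5% below *Fdps*. In batch 1 the highest library was between 1.59 times (*Fdft1*) and 4.58 times (*Idi1*) the lowest, and in batch 2 between 1.06 times (*Hmgcs1* and *Fdft1*) and 1.52 times (*Idi1*).

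**Figure D3:**
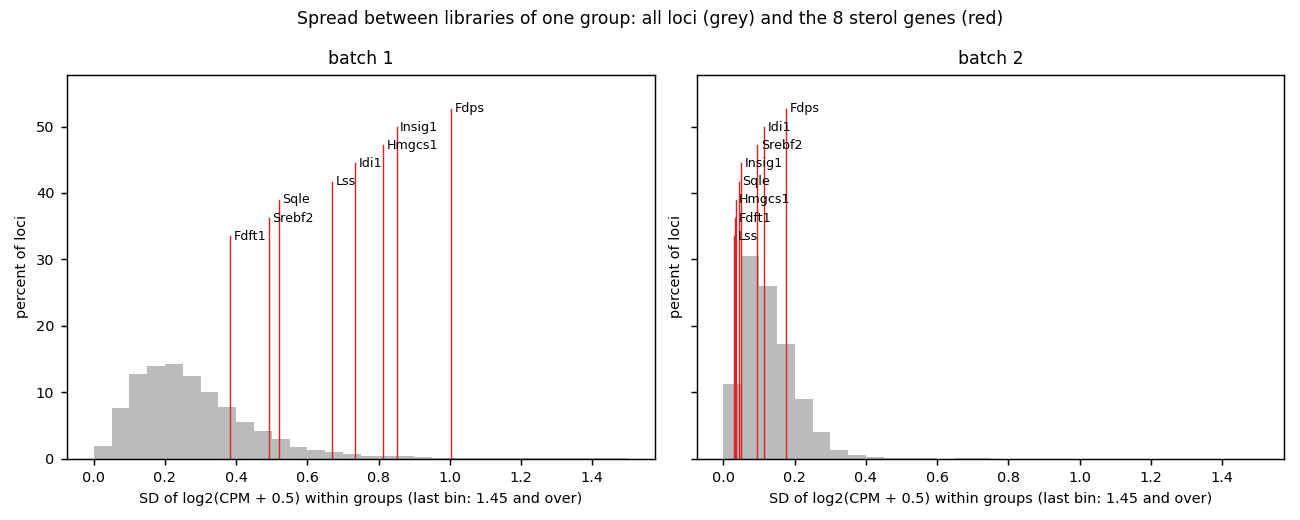
Grey bars give the percent of all loci (vertical axis) by their within-group SD of log2 of CPM plus 0.5 (horizontal axis), and red lines mark the 8 members, in batch 1 (left) and batch 2 (right). The heights of the red lines carry no value and only keep the names apart. The members lie in the right part of the batch 1 distribution, with a median of 0.70, and in batch 2 their median is 0.046.

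Between genes, levels were compared per kilobase of the longest protein-coding transcript in GENCODE, while the rows were counted on UCSC KnownGene genes. In batch 2 *Hmgcs1* had a median of 35.3 CPM per kilobase and *Sqle* of 34.5, and these neighbours overlapped between libraries. *Srebf2* followed at 19.1, *Fdps* at 11.4, *Lss* at 9.96, *Insig1* at 2.33 and *Idi1* at 0.14 CPM per kilobase, each with its libraries apart from the next. The row of *Fdft1* was above all of them at 100.3 CPM per kilobase of *Fdft1* transcript, a value that includes *Ctsb*. In batch 1 neighbours overlapped except *Insig1* against *Idi1* and the *Fdft1* row against *Sqle*. By group, the mean was highest in siSbsn of batch 1 for 8 of 8 members, and its libraries overlapped those of the group with the next mean in each case. The batch 2 groups had the lowest means for 8 of 8, did not overlap the batch 1 group next above them and overlapped each other.

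The members were correlated with each other after the mean of each batch had been taken out. Pearson's r over the 12 libraries was 0.49 to 1.00 in the 28 pairs, and 0.74 to 1.00 in the 21 pairs without *Fdft1*. The libraries share 1 count table and the coefficients rest largely on the 2 high libraries, so they are given as a description. The loci most like the mean of the members were *Cyp51*, lanosterol demethylase (r = 0.994), *Nsdhl*, a sterol dehydrogenase (0.993), *Papss1*, a sulfate-activating enzyme (0.990), *Tmprss4*, a membrane serine protease (0.990), and *Idh1*, the cytosolic isocitrate dehydrogenase (0.987). *Cyp51* was at 218 and 67.0 CPM in no siRNA, 82.3 and 63.4 CPM with siControl, 286 and 92.1 CPM with siSbsn in batch 1 and 33.3 to 35.0 CPM in batch 2.

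Transfection was addressed by siControl against no siRNA within batch 1, where 0 of 8 members passed the test. 7 of 8 were lower in siControl, and *Fdft1* was at a log2 fold change of 0.14. The members' median log2 fold change was -0.66 (all loci 0.0034). The fold change was -1.03 ± 0.55 (SE, n = 2 and 2) for *Hmgcs1*, -0.95 ± 0.60 for *Insig1*, -0.73 ± 0.64 for *Idi1*, -0.68 ± 0.36 for *Srebf2*, -0.63 ± 0.47 for *Lss*, -0.57 ± 0.38 for *Sqle* and -0.19 ± 0.68 for *Fdps*. Adjusted p-values of edgeR's quasi-likelihood test (q) ran from 0.338 to 0.882, and 49.8% of all loci were below 0. Of 13176 loci tested 0 were called, at q under 0.05 and an absolute log2 fold change over 0.5 (percent called 0 in each direction), while 2116 loci (16.1%) had an unadjusted p under 0.05, none of them a member, and DESeq2 called 26 (0.197%), all lower and none a member.

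The members' median difference rested on 1 library. Without no siRNA replicate 1 the members' median was 0.012, *Hmgcs1* was at -0.12, and *Idi1*, *Fdps* and *Lss* were above 0 at 0.34, 0.83 and 0.031. Without no siRNA replicate 2 the median was -1.08. In these fits the lone remaining library is assumed to vary like those of the other groups. Of the other sterol enzymes 12 of 17 were below 0 (median -0.38), of fatty acid genes 11 of 13 (median -0.68), of sensing and uptake genes 12 of 15 (median -0.25) and of LXR and efflux genes 3 of 7 (median 0.21). None was called. The fibroblast markers were below 0 for 9 of 10 genes (median -0.73, 4 with an unadjusted p under 0.05) and the immune markers for 6 of 6 (median -0.92), and their part in the members' values was not tested. Among the smallest p-values were those of the enzymes *Hsd17b7* (-1.33) and *Dhdds* (0.38), and of *Stard4*, a sterol carrier (-1.52), *Lpin1* (-0.98) and *Scarb1* (0.35). Among LXR genes they were *Mylip* (-0.49), *Nr1h2* (0.45), *Abca1* (-0.76) and *Lpcat3* (0.28), and among fatty acid genes *Scd1* (-1.58), *Fasn* (-0.70), *Scd2* (-1.72) and *Acly* (-0.68).

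When siControl and siSbsn of batch 1 were averaged and set against the same libraries without siRNA, 0 of 8 members and 0 of 13176 loci were called (percent called 0 in each direction, 125 loci or 0.949% at an unadjusted p under 0.05, DESeq2 0). Of the members 6 of 8 were below 0 (50.1% of loci), at log2 fold changes of -0.33 to 0.17, with a median of -0.11 (all loci -0.0012) and q between 0.848 and 0.969. Without no siRNA replicate 1 the median was 0.58, and without no siRNA replicate 2 it was -0.56. When the library labelled siSbsn batch 1 replicate 1 was left out, it was -0.42. With siSbsn alone against no siRNA the median was 0.40, and -0.25 when that library was left out. The sign of the members' difference thus changed with the siRNA group and with the library left out, and both comparisons share the libraries without siRNA. Neither a shift by transfection nor its absence was shown at n = 2. Of the other sterol enzymes 11 of 17 were below 0, of sensing and uptake genes 11 of 15, of LXR and efflux genes 4 of 7 and of fatty acid genes 10 of 13.

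Between the batches all 8 members fell. With siRNA treatment in the model, 8 of 8 members were lower in batch 2 than in batch 1, where 21.3% of 12857 loci were called lower and 16.4% higher. *Idi1* fell by 2.53 ± 0.33 on the log2 scale (SE, 4 libraries against 6, q = 0.000193), *Fdps* by 2.20 ± 0.31 (q = 0.000318) and *Insig1* by 1.83 ± 0.33 (q = 0.00119). *Fdft1* fell by 1.07 ± 0.13 (q = 0.000127), *Hmgcs1* by 1.01 ± 0.30 (q = 0.0155), *Srebf2* by 0.94 ± 0.21 (q = 0.00355), *Sqle* by 0.91 ± 0.19 (q = 0.00285) and *Lss* by 0.88 ± 0.24 (q = 0.0115). The members' median was -1.04 and that of all loci -0.022.

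All 6 batch 2 libraries were below all 4 siRNA libraries of batch 1 for 8 of 8 members, which held for 19% of loci, while 17.2% of loci had all batch 2 libraries above. Exact two-sided permutation tests of log2 CPM (n = 4 and 6) gave p = 0.01 for each member, the smallest of 100 arrangements. Batch labels were exchanged within siControl and within siSbsn. With that complete separation no arrangement gives a larger fall, so this test restates the order of the libraries. It does not set the members apart from the 19% and 17.2% of loci separated downward or upward in the same way. With library totals in place of TMM factors the median of all loci was 0.13 and that of the members -0.88, the calls split into 3069 higher and 2024 lower in place of 2112 and 2740, and 8 of 8 members were still called lower.

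The estimated batch difference varied between the treatments when each was fitted alone, and with 1 library. The interaction of batch and treatment, given below, called no member with edgeR. In siControl alone 4 of 8 members were called lower, beside 1214 loci called lower and 470 higher (1684 in all). The members called were *Idi1* (-1.82), *Fdps* (-1.73), *Insig1* (-1.02) and *Fdft1* (-1.01). *Hmgcs1* was at -0.25, *Lss* at -0.32, *Srebf2* at -0.39 and *Sqle* at -0.45. In siSbsn alone 8 of 8 were called lower, with a median of -1.54, beside 2426 loci called lower and 1855 higher. With its replicate 1 of batch 1 left out the median was -0.94, from a fit that leaves 1 batch 1 library. When the library labelled siSbsn batch 1 replicate 1 was left out, 6 of 8 were called lower in the fit of both treatments. Beside them 2340 loci were called lower and 1811 higher. There *Hmgcs1* (-0.49) and *Lss* (-0.45) came under the threshold of 0.5 with q of 0.0106 and 0.0035. Without any other single library 8 of 8 were called. Of other cell types, the immune markers were called lower for 4 of 4 tested (median -1.28) and the melanocyte markers higher for 4 of 8 (median 0.42), while of the fibroblast markers 1 of 10 was lower and 2 were higher (median -0.14). Their part in the members' values was not tested. Batch here is what the labels call batch, and whatever else differed between those cultures or libraries cannot be told apart from it.

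**Figure D4:**
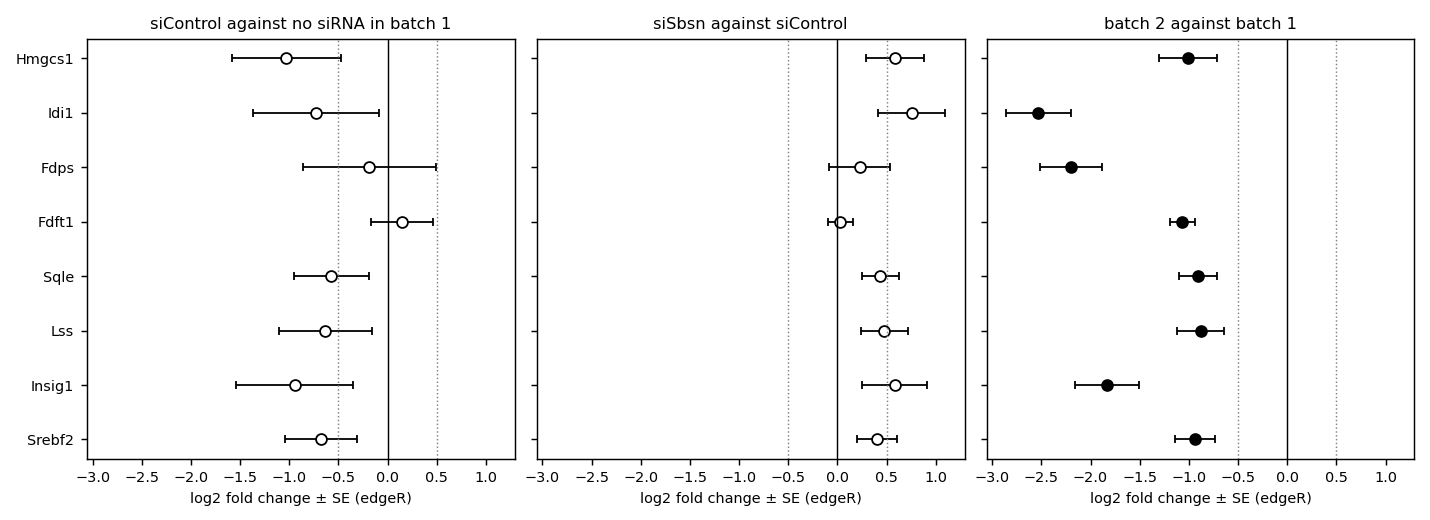
Log2 fold change of each member with its SE (horizontal axes) for siControl against no siRNA in batch 1, siSbsn against siControl, and batch 2 against batch 1, from edgeR. Filled points were called, open points were not, and dotted lines mark -0.5 and 0.5. Only the batch comparison has filled points, 8 of 8, from -2.53 for *Idi1* to -0.88 for *Lss*.

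The rest of the synthesis pathway fell between the batches in part. Of all loci 21.3% were called lower and 16.4% higher. Of the other sterol enzymes 12 of 17 were called lower and 0 higher (median -1.15), and small p-values were found for *Dhcr7*, which reduces the last double bond of cholesterol synthesis (-2.99), for *Pmvk*, phosphomevalonate kinase (-1.91), and for *Msmo1*, a sterol methyl oxidase (-2.12). *Dhcr7* was at 115 to 179 CPM in batch 1 and at 14.9 to 17.8 CPM in batch 2. In the sensing and uptake list 4 of 15 were lower and 3 higher (median -0.22). There *Insig2*, the paralog of *Insig1*, was at -0.77, *Npc2*, which carries cholesterol out of lysosomes, at -0.84, and *Npc1l1*, an intestinal sterol transporter, at 2.06 but below 1 CPM in every library. In the LXR and efflux list 1 of 7 was called, *Abca1*, the cholesterol exporter, at 1.09 (median of the list 0.092). The calls of the sensing and uptake list and of the LXR list were near the shares of all loci. In the fatty acid list 7 of 13 were lower and 0 higher (median -0.87), with small p-values for *Me1* (-1.14), *Mid1ip1* (-0.94), *Scd2* (-3.00) and *Acly* (-0.87). In siControl alone *Insig2* (-0.46), *Abca1* (1.18) and *Acly* (-0.43) were not called.

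The siSbsn pool was set against siControl in the 10 libraries with batch in the model. All 8 members were above 0, as were 50.7% of loci, and 0 of 8 were called. The log2 fold change was 0.75 ± 0.34 (SE, n = 5 and 5) for *Idi1*, 0.58 ± 0.29 for *Hmgcs1*, 0.58 ± 0.33 for *Insig1*, 0.48 ± 0.24 for *Lss*, 0.43 ± 0.19 for *Sqle*, 0.41 ± 0.20 for *Srebf2*, 0.23 ± 0.31 for *Fdps* and 0.029 ± 0.13 for *Fdft1*. The members' median was 0.46 (all loci 0.0055), and q ran from 0.257 to 0.890. Of 12857 loci 0 were called (percent called 0 in each direction), 2464 (19.2%) had an unadjusted p under 0.05, among them *Sqle* and *Idi1*, and DESeq2 called 93 (0.397% higher and 0.327% lower) and no member. Exact two-sided permutation tests within batch (n = 5 and 5) gave p = 0.0333 for *Sqle* and for *Lss* and 0.117 to 0.75 for the others, where 120 arrangements allow 0.0167, and over the 8 members these are not adjusted for multiple tests.

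This difference was that of batch 1. There the members' median was 1.04, with *Insig1* at 1.44 ± 0.47 and *Hmgcs1* at 1.41 ± 0.42 (n = 2 and 2, q = 0.423 for both), and in batch 2 it was 0.0034, with *Insig1* at -0.048 ± 0.087 and *Hmgcs1* at 0.019 ± 0.058 (n = 3 and 3). Within batch 1 the median was 0.51 when the library labelled siSbsn batch 1 replicate 1 was left out, with *Insig1* at 0.54 ± 0.54 and *Hmgcs1* at 0.62 ± 0.53 (q = 0.987 for both in edgeR). When the library labelled siSbsn batch 1 replicate 1 was left out, the median of the fit over both batches was 0.18, and *Fdps* (-0.17) and *Fdft1* (-0.054) were below 0. Of the other sterol enzymes 15 of 17 were above 0 (median 0.22), of sensing and uptake genes 12 of 15 (median 0.19), of LXR and efflux genes 2 of 7 (median -0.15) and of fatty acid genes 11 of 13 (median 0.38), and 0 were called. The fibroblast markers were above 0 for 9 of 10 genes (median 0.38), and their part was not tested. Among the smallest p-values were those of *Hsd17b7* (0.65) and *Nsdhl* (0.38), of *Npc1* (0.22), *Lpin1* (0.57), *Lipa* (0.19) and *Stard4* (0.74), of *Nr1h2* (-0.19), *Mylip* (0.19), *Abca1* (0.36) and *Apoe* (-0.21), and of *Acaca* (0.50), *Acly* (0.38), *Elovl6* (0.67) and *Fasn* (0.34).

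Whether siSbsn acted differently in the batches was tested as the interaction of batch and treatment, the log2 fold change in batch 2 minus that in batch 1. It was below 0 for 8 of 8 members (52% of loci), with a median of -1.04 (all loci -0.024), and edgeR called 0 of 8 and 0 of 12857 loci (percent called 0 in each direction). *Insig1* was at -1.50 ± 0.48 (SE, q = 0.276), *Hmgcs1* at -1.40 ± 0.41 (q = 0.265), *Srebf2* at -1.03 ± 0.27 (q = 0.265) and *Fdft1* at -0.086 ± 0.27 (q = 0.874). An unadjusted p under 0.05 was found for 5 of 8 members, against 15.1% of loci in either direction. DESeq2 called *Srebf2* (-1.04 ± 0.30, q = 0.0393) among 208 loci, 1.21% of loci lower and 0.404% higher. When the library labelled siSbsn batch 1 replicate 1 was left out, DESeq2 put *Srebf2* at -0.61 (q = 0.196) and called *Hmgcs1* (-0.59, q = 0.0498) among 29 loci. With edgeR the members' median was -0.45 without that library, -1.51 without siSbsn batch 1 replicate 2 and -1.05 without siControl batch 1 replicate 2. Without siSbsn batch 1 replicate 2 the siSbsn library left in batch 1 is the one that goes against its label. Each of these omissions, with DESeq2 too, leaves 1 library in a batch 1 group, which is assumed to vary like the other groups. The fibroblast markers were below 0 for 10 of 10 genes in this interaction (median -1.01), and their part in the members' values was not tested. Of the other sterol enzymes 16 of 17 were below 0, of sensing and uptake genes 13 of 15, of LXR and efflux genes 3 of 7 and of fatty acid genes 12 of 13.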

How the data were processed

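RNA-Seq was performed on 12 libraries. The authors mapped the reads on mm10 using STAR with default parameters, counted uniquely aligned reads on UCSC KnownGene genes, joined overlapping genes into 1 row (4802 of 21947 rows carry several names, 1828 with a comma) and deposited whole-number counts without normalization. The use of strand in counting is not given in these sources. Their study used DESeq2 with a batch factor. Total counts were 27934836 to 49553923, so low rows such as *Idi1* are limited by counting. Row starts matched GENCODE starts of mm10 after adding 1 (49.11% against 4.62% as given).

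Counts were tested with edgeR 4.0.16 in R 4.3.3 (TMM factors, filterByExpr by treatment, quasi-likelihood F test, Benjamini-Hochberg q over all loci tested), and calls needed q under 0.05 and an absolute log2 fold change over 0.5. The SE is the size of the log2 fold change over the root of its F statistic. The tests against no siRNA used the 6 batch 1 libraries and the others the 10 siRNA libraries. DESeq2 1.42.0, limma-voom (limma 3.58.1), other scaling, no filter, a removed length trend, the replicate block and each library left out were alternatives. Log2 values of single libraries used a pseudocount of 0.5 CPM. The fits were also run on simulated counts with known changes and the same spread in all libraries, so the unequal spread of the batches was not tested. CPM is not a share of the total count, since its divisor sums only the 13562 loci that passed the filter in the 12 libraries.

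Named genes were the members, *Sbsn*, the 5 most alike loci, the most abundant marker of each list, and per comparison and lipid list the called genes, or the 4 with the smallest p where over 4 or none were called. For the averaged siRNA groups and for the interaction the lists are given as counts only. A few genes that this rule would name are not reported here. Members and lists were chosen with earlier results of these data known.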

Additional observations from a re-analysis of the deposited data

Results flagged for a closer look

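*Srebf2*, the gene of SREBP2, was flagged because the siSbsn difference was not the same in the batches by DESeq2, with a log2 fold change in batch 2 minus that in batch 1 of -1.04 (q = 0.0393). With edgeR it was -1.03 (q = 0.265) and with limma-voom -0.98 (q = 0.306), so only DESeq2 of the 3 tools made the call. DESeq2 did not make the call when the library labelled siSbsn batch 1 replicate 1 was left out. *Srebf2* was then still below 0, at -0.61 with DESeq2 and -0.64 with edgeR. These fits leave 1 siSbsn library in batch 1, and q also depends on the p-values of all other loci. In batch 1 *Srebf2* had 124 and 130 CPM with siControl and 325 and 193 CPM with siSbsn, and in batch 2 siControl (91.1 to 102.5 CPM) and siSbsn (88.9 to 102.7 CPM) overlapped.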

How the results depend on the processing

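Under the alternatives 368 recomputed counts and medians stayed within 1.5 times the reported count or within 1 SD of the reported median and 32 did not. For siControl against no siRNA 815 loci and 1 member (*Hmgcs1*, -1.04, q = 0.0218) were called without the filter and 26 loci by DESeq2, and 8 loci were called without replicate 1 of no siRNA and of siSbsn together. With 1 library left out the loci called ran from 0 to 3213 (the highest without siControl replicate 2) and the median from -1.08 to 0.012. Over the libraries left out *Idi1* ran from -1.33 to 0.34, *Fdps* from -0.81 to 0.83, *Fdft1* from -0.25 to 0.45 and *Lss* from -1.09 to 0.031. Signs also changed without replicate 1 of no siRNA and siSbsn together (*Idi1* 0.31, *Fdps* 0.79, *Lss* 2.44e-05) and with the length trend removed (*Fasn* 0.097). For the averaged siRNA groups 1 locus was called without the filter and 1 without those 2 libraries together, and the median ran from -0.56 to 0.58 over the libraries left out.

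For batch 2 against batch 1, siControl alone gave 1684 loci called, 1214 of them lower, and 4 members lower. In siSbsn alone the members' median was -1.54. Over the libraries left out 6 to 8 members and 4151 to 5396 loci were called, and no member reversed. Without siControl and siSbsn replicate 1 of batch 1 together, a setting chosen after seeing the data like the other joint omissions and the omission of the *Fdft1* row, 7 members were called, *Lss* being at -0.46.

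For siSbsn against siControl 93 loci were called by DESeq2, 150 in the fit of all 12 libraries, 1 in batch 2 alone and 1 without both replicate 1 libraries, and the median was 1.04 in batch 1 and 0.0034 in batch 2. Signs changed in batch 2 alone (*Fdps* -0.14, *Fdft1* -0.012, *Insig1* -0.048, *Srebf2* -0.013, *Mylip* -0.0083), with the length trend removed (*Fdft1* -0.11, *Abca1* -0.0061, *Apoe* 0.033, *Fasn* -0.051) and without both replicate 1 libraries (*Fdps* -0.0049). In batch 1 alone with siSbsn replicate 1 omitted 10 loci were called, and *Fdps* was at -0.25 and *Fdft1* at -0.18. Over the libraries left out *Fdps* ran from -0.17 to 0.36 and *Fdft1* from -0.060 to 0.13. For the interaction 17 loci were called without the filter and 208 loci and 1 member by DESeq2, and with siSbsn batch 1 replicate 1 omitted DESeq2 called 29 loci and 1 member, the median being -0.42, *Fdps* 0.12 and *Fdft1* 0.17. Over the libraries left out 0 to 4398 loci and 0 to 6 members were called and the median ran from -1.51 to -0.45. Over the same libraries *Fdps* ran from -1.47 to 0.089 and *Fdft1* from -0.45 to 0.17, and *Fdft1* was at 0.15 with the length trend removed. The cause of these changes was not tested, beyond fewer libraries where one was left out.

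The same-numbered libraries of batch 1 share only a number, and their deviations from the group means correlated at 0.41 (no siRNA with siControl), 0.86 (no siRNA with siSbsn) and 0.50 (siControl with siSbsn) over 11488 loci, a hint from the data and not from the design. With the replicate number as a block the interaction called 69 loci in place of 0 and 0 members, the members' medians were -0.50 for siControl against no siRNA, -0.053 for the averaged siRNA groups, 0.42 for siSbsn against siControl and -0.96 for the interaction, and no member changed its call. No block could be used between the batches.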
